A study of Mus musculus with 30 samples.

Results

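The 10 genes Cpt1a, Cpt2, Acadvl, Acadl, Acadm, Hadha, Hadhb, Echs1, Hadh and Etfdh encode enzymes of mitochondrial fatty acid oxidation. They were chosen by name as the array probe sets that carry these gene symbols, and all 10 were found among the 19938 genes measured. The choice was made with earlier results of these data known. Counts of the members beside the shares of all genes are therefore a description only. Of these, 9 had 1 probe set each. Hadhb had 2, whose values correlated over the arrays with a Pearson r of 0.987, and the probe set with the higher mean was used.

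Long-chain fatty acids enter the mitochondrial matrix as carnitine esters, which Cpt1a makes at the outer membrane in the step that limits the flux and that malonyl-CoA inhibits. Inside, Cpt2 restores the CoA ester, and the acyl chain is then shortened in repeated rounds of dehydrogenation, hydration, a further dehydrogenation and thiolysis. The electrons of the initial dehydrogenation reach the respiratory chain through Etfdh. In T cells the pathway is best known for its use by resting and memory CD8+ cells, whereas activated cells are known for glycolysis.

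The study compared in vitro differentiated memory (TMem) and naive (TN) CD8+ T cells on 30 Affymetrix mouse gene arrays, in 10 groups of 3 that the design text describes as biological repeats. Per the labels, all cells came from spleens of adult C57BL/6 Pmel-1 mice aged 6 to 12 weeks, which carry a transgenic T cell receptor for a melanocyte antigen. TMem cells carried the congenic allele Ly5.2 and TN cells Ly5.1, and every group was sorted by flow cytometry. The TMem groups were TMem mix at 18 h and 96 h, cultured together with TN cells, and TMem alone at 0 h, 18 h and 96 h. The TN groups were TN mix at 18 h and 96 h, cultured together with TMem cells, and TN alone at 0 h, 18 h and 96 h. Stimulation was with antibodies to CD3 and CD28 and with IL-2, and the 0 h cells were not stimulated. TMem cells were made in culture and are thus a model of memory cells, not cells taken from an immunized animal.

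Values are on the log2 scale as deposited, so that a difference of 1 is a 2-fold change, and each group mean rests on 3 arrays. A gene is called changed at an adjusted p under 0.05 (limma, Benjamini-Hochberg over all 19938 genes). A level is described as near background where the group mean lies below the lower quartile of its arrays, and none of the 10 genes was near background in any group. CD8 T cell markers averaged 11.2 to 12.2 on every array, and of 4 measured B cell markers Ms4a1 and Cd79a were near background in all 10 groups, while Cd79b, with group means of 7.58 to 9.58, and Pax5, with 6.21 to 6.46, were above it in all 10. Replicate arrays correlated with an r of 0.978 to 0.998, and replicate 1 of TN alone at 0 h stood apart from its group, with an r of 0.978 and 0.982 to the other arrays against 0.995 between those. The labels call all mice female, but the Y-linked gene Eif2s3y read 8.82 to 9.51 on all TMem arrays and 7.34 to 8.50 in TN mix at 18 h and 96 h and TN alone at 18 h, against 3.997 to 4.58 in TN alone at 0 h and 96 h. Xist, read as part of the same check of sex, was 4.99 to 6.02 on all TMem arrays and 9.34 to 12.1 on all TN arrays. Comparisons of TMem with TN cells therefore differed in both Y-linked and Xist signal, which cannot be told apart from cell type there. Comparisons of TN alone at 18 h with 0 h or 96 h, and of TN mix with TN alone at 96 h, differed in Y-linked signal. Xist also differed between TN groups. In TN alone it was 9.34 to 10.99 at 0 h, 11.18 to 11.34 at 18 h and 12.10 to 12.11 at 96 h. In TN mix it was 10.945 to 11.02 at 18 h and 11.07 to 11.78 at 96 h. The part of these signals in the results was not tested. TN alone at 96 h also had more signal of several marker genes of other cell types. The 4 MHC class II genes, of which none was near background, averaged 9.11 to 9.26 there, against 7.37 to 7.53 in TN mix at 96 h. Of the 6 myeloid markers 5 were above background in TN alone at 96 h, with array means of 6.65 to 6.67. In TN mix 3 of 6 were, with means of 5.81 to 6.08. Lyz2 averaged 8.26 in TN alone at 96 h and 5.47, near background, in TN mix. Fcer1g averaged 8.28 against 6.92, and 9.33 in TMem alone at 96 h. The other markers differed little, with Csf1r at 6.21 against 6.00, Cd14 at 5.94 against 5.84, Itgam at 6.00 against 5.99 and Adgre1 at 5.28 in both groups. The mast cell and basophil markers Cpa3 and Mcpt8 were above background in both, with array means of 7.80 to 8.25 in TN alone at 96 h against 6.28 to 6.86 in TN mix. Of the CD4 T cell markers, Foxp3 averaged 8.79 in TN alone at 96 h against 7.30 in TN mix, and Izumo1r 8.49 against 7.25. Cd4 averaged 6.36 against 6.48. In TN alone at 18 h the MHC class II genes averaged 6.85 to 6.91, and Lyz2 (5.81) and Cpa3 (5.53) were near background. Foxp3 averaged 7.21 and Izumo1r 8.62 there. The part of these marker genes in the results at 96 h, including 96 h against 18 h in TN alone, was not tested.

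The sequences upstream of 5 members are shown because these genes moved most across the groups (Cpt1a, Hadh, Acadl and Hadhb) or against the others (Acadm). Each is the run of 250 bases before the start of the gene in RefSeq, build GRCm38.p6, written 5′ to 3′ on the strand of the gene. Capitals mark matches on either strand to AGGTCA, the core element of nuclear receptors such as the PPARs, and to GGGCGG, the GC box. The start used for Cpt1a lies inside the annotated gene interval.
Cpt1a, chr19:3323051-3323300, plus strand: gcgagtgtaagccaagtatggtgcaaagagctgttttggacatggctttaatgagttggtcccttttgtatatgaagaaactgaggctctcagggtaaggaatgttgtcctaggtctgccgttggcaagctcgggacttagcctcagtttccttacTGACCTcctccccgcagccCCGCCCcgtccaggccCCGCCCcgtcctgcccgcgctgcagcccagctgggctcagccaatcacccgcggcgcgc
Acadl, chr1:66863310-66863559, minus strand: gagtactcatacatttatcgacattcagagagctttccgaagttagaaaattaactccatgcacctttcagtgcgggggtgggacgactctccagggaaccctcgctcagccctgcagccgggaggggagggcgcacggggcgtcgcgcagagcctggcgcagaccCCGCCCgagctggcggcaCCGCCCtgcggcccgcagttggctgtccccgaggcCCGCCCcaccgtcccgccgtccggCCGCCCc
Acadm, chr3:153944644-153944893, minus strand: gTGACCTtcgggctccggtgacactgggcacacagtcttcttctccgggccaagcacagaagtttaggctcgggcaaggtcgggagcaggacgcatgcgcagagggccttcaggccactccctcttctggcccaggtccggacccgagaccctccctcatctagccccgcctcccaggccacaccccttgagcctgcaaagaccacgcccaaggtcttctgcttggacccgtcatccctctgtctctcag
Hadhb, chr5:30155003-30155252, plus strand: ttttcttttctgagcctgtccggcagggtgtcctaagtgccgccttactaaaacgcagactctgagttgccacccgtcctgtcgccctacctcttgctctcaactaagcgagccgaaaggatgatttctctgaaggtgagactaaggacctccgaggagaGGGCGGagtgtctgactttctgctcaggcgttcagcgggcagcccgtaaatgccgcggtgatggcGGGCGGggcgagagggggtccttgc
Hadh, chr3:131272102-131272351, minus strand: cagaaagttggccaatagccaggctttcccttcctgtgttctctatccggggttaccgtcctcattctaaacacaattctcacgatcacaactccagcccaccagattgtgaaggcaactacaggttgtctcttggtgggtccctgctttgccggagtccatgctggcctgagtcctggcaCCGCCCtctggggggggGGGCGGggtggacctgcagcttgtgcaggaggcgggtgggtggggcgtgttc
AGGTCA was present in 4 of the 10 upstream windows, against 14.0% of all 32851 promoters, and GGGCGG in 7 of 10, against 32.7%. No member held CACGTG, which 6.02% of all promoters held, or 2 copies of AGGTCA in the same direction with 1 base between them, which 0.0335% held. Hadha and Hadhb lie head to head on chromosome 5, with starts 272 bases apart, so that their windows overlap and share matches. The double element contains AGGTCA, so those searches overlap, and a match describes the letters only.

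Most of the 10 transcripts were lower at 18 h of stimulation than at 0 h in both cell types, and 5 or 6 of them were higher at 96 h than at 18 h. In TN alone at 18 h against 0 h, 9 of the 10 genes were lower and 0 higher, where 16.7% of all genes were called lower and 17.1% higher. The members had a median difference of -0.57, against -0.02 over all genes. In TMem alone at 18 h against 0 h, 7 of 10 were lower and 0 higher, where 17.3% of all genes were called lower and 18% higher, with a median of -0.43 against -0.09. The later interval, 96 h against 18 h, had 5 genes higher and 1 lower in TN alone, where 11.3% of all genes were called higher and 13.1% lower. In TMem alone 6 were higher and 1 lower, where 14.6% of all genes were called higher and 9.87% lower. These pairs of comparisons share the 18 h arrays of each cell type. Over the whole course, 96 h against 0 h, 1 gene was higher and 5 lower in TN alone, where 18.6% of all genes were called higher and 17.9% lower. In TMem alone 0 were higher and 1 was lower, where 16.1% of all genes were called higher and 8.44% lower. As these are bulk samples, fewer cells of a type and less RNA per cell cannot be told apart.

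**Figure D1:**
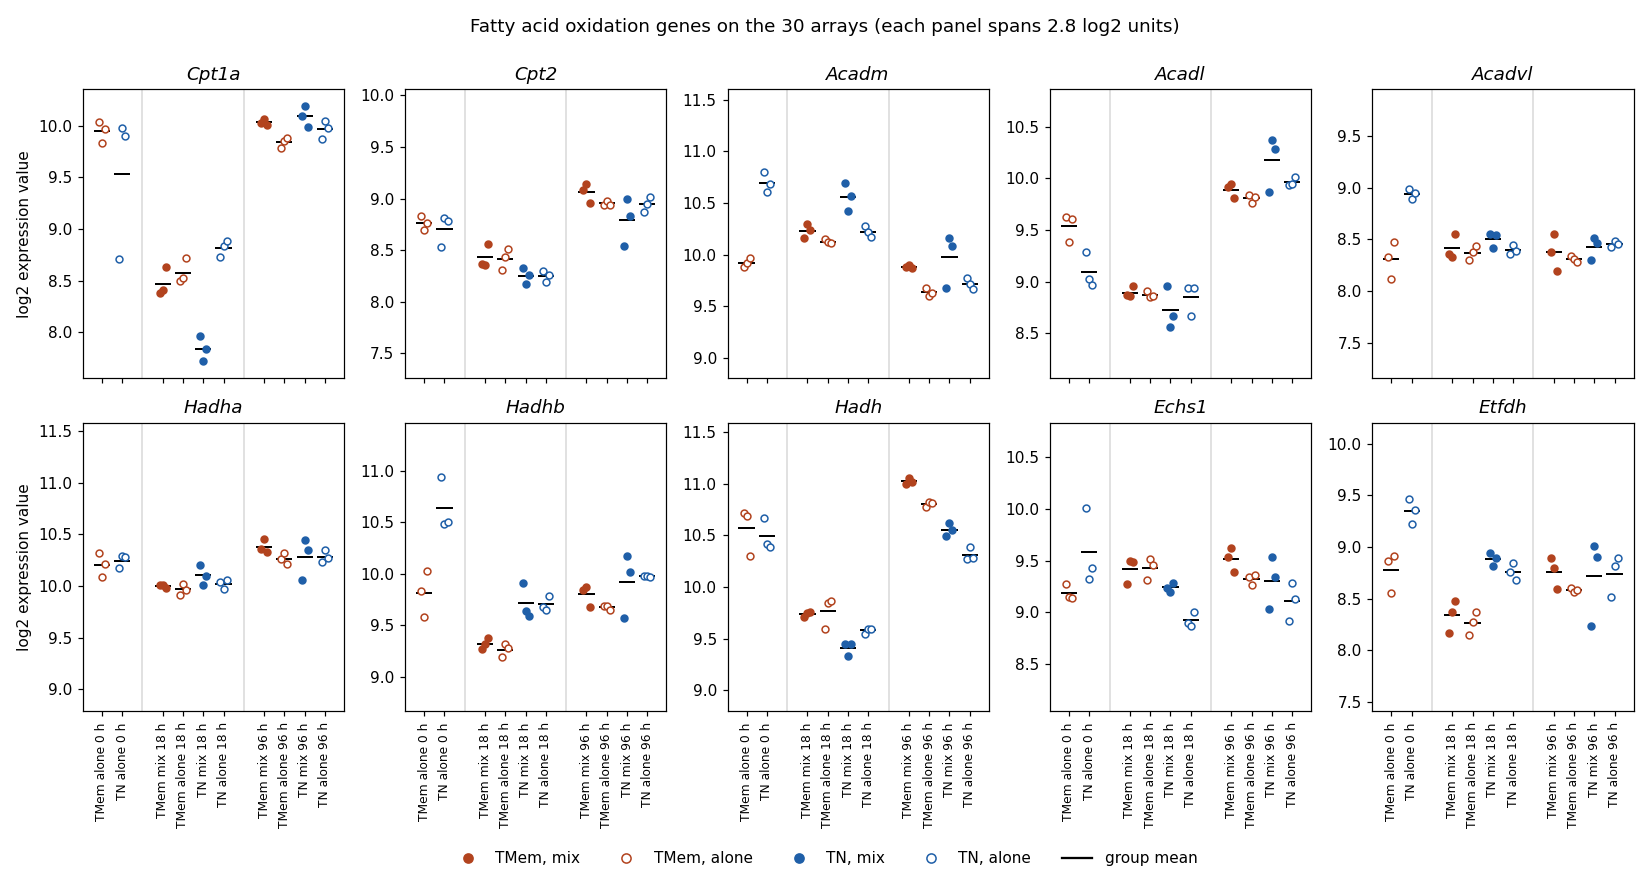
Each panel shows 1 gene on all 30 arrays, with the log2 expression value on the vertical axis and the groups by time on the horizontal axis. Filled points are mixed cultures, open points are cells alone, and black lines are group means. Cpt1a, Acadl and Hadh dip at 18 h in both cell types, and Acadm has its lowest group means at 96 h.

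Cpt1a varied most of the 10. Its group means spanned 2.25, wider than in 95.6% of all genes. The TMem alone arrays read 10.04, 9.84 and 9.97 at 0 h, 8.50, 8.52 and 8.72 at 18 h, and 9.79, 9.85 and 9.88 at 96 h. All 18 h arrays lay below all 0 h and 96 h arrays. Cpt1a fell by 1.37 at 18 h against 0 h in TMem alone (SE 0.18, adjusted p = 4.36e-07), a 2.58-fold lower level, and rose by 1.26 at 96 h against 18 h (SE 0.18, adjusted p = 2.87e-06). The TN alone arrays read 8.71, 9.98 and 9.90 at 0 h, 8.72, 8.84 and 8.89 at 18 h, and 9.87, 10.05 and 9.98 at 96 h. Replicate 1 at 0 h, the array that stood apart, was as low as the 18 h arrays, so these groups overlapped. Cpt1a fell by 0.71 at 18 h against 0 h in TN alone (SE 0.18, adjusted p = 0.00231). Without that array the difference was -1.12, and with only the 2 groups in the fit it was not called (adjusted p = 0.129, the highest over 14 alternatives, the lowest being 5.97e-12). At 96 h against 18 h it rose by 1.15 (SE 0.18, adjusted p = 1.20e-05).

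Cpt2, which reverses the carnitine transfer inside the mitochondrion, moved in the same directions within a narrower range of 0.81. In TMem alone it read 8.83, 8.69 and 8.76 at 0 h, 8.31, 8.43 and 8.51 at 18 h, and 8.94, 8.98 and 8.94 at 96 h. It fell by 0.35 at 18 h against 0 h (SE 0.10, adjusted p = 0.00510) and rose by 0.54 at 96 h against 18 h (SE 0.10, adjusted p = 7.65e-05). In TN alone it fell by 0.46 at 18 h (adjusted p = 3.26e-04) and rose by 0.70 at 96 h (adjusted p = 1.77e-06), and arrays of successive times did not overlap.

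The 3 acyl-CoA dehydrogenases, which act on very long (Acadvl), long (Acadl) and medium (Acadm) chains, took 3 different courses. Acadl was lowest at 18 h, like Cpt1a. In TMem alone it read 9.62, 9.38 and 9.60 at 0 h, 8.91, 8.85 and 8.86 at 18 h, and 9.84, 9.76 and 9.81 at 96 h. In TN alone it read 9.28, 9.02 and 8.96 at 0 h, 8.94, 8.66 and 8.94 at 18 h, and 9.94, 9.94 and 10.02 at 96 h. Acadl fell by 0.66 at 18 h against 0 h in TMem alone (SE 0.11, adjusted p = 2.41e-05), while the difference of -0.24 in TN alone did not pass (adjusted p = 0.107). It passed there after quantile normalization or centring of the arrays, with adjusted p-values over 14 alternatives between 0.00620 and 0.438. Acadl then rose at 96 h against 18 h by 0.93 in TMem alone (adjusted p = 2.01e-07) and by 1.12 in TN alone (adjusted p = 7.28e-09). In TN alone it was also above its 0 h level at 96 h, by 0.88 (SE 0.11, adjusted p = 2.98e-07), the only member called higher there.

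Acadm ran the other way at 96 h. In TMem alone it read 9.88, 9.92 and 9.97 at 0 h, 10.15, 10.12 and 10.11 at 18 h, and 9.67, 9.60 and 9.63 at 96 h. All 96 h arrays were below all others, and the 18 h arrays were above those of 0 h by 0.20, a difference that was not called (adjusted p = 0.0893). Acadm fell by 0.49 at 96 h against 18 h in TMem alone (SE 0.09, adjusted p = 1.22e-04) and by 0.29 against 0 h (adjusted p = 0.0193). The call against 0 h was lost without replicate 3 at 0 h, or replicate 2 or 3 at 96 h. In TN alone Acadm read 10.80, 10.61 and 10.69 at 0 h, 10.28, 10.22 and 10.17 at 18 h, and 9.77, 9.71 and 9.67 at 96 h. The times did not overlap. Acadm fell by 0.48 at 18 h against 0 h (adjusted p = 1.21e-04) and by a further 0.50 at 96 h (fell by 0.50, adjusted p = 9.29e-05).

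Acadvl stood out in unstimulated TN cells alone. It read 8.99, 8.89 and 8.95 in TN alone at 0 h, and the highest array of any other group read 8.555. In TN alone it fell by 0.55 at 18 h against 0 h (SE 0.09, adjusted p = 1.79e-05), and at 96 h its difference to 18 h was 0.06, which was not called. In TMem alone its differences were 0.06 at 18 h against 0 h and -0.06 at 96 h against 18 h, neither of which was called.

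Hadha and Hadhb are the 2 subunits of the trifunctional protein, which carries out the last 3 steps of each round on long chains. Their starts lie 272 bases apart, and their levels differed in range. The group means of Hadhb spanned 1.37, wider than in 86.4% of all genes, against 0.41 for Hadha, wider than in 40.5%. In TN alone Hadhb read 10.94, 10.48 and 10.502 at 0 h, 9.68, 9.65 and 9.78 at 18 h, and 9.98, 9.98 and 9.97 at 96 h. Hadhb fell by 0.94 at 18 h against 0 h (SE 0.13, adjusted p = 9.08e-07) and by 0.66 at 96 h against 0 h (adjusted p = 1.10e-04). In TMem alone it read 9.83, 9.58 and 10.03 at 0 h, 9.20, 9.32 and 9.28 at 18 h, and 9.69, 9.69 and 9.65 at 96 h. It fell by 0.55 at 18 h against 0 h (SE 0.13, adjusted p = 0.00100) and rose by 0.41 at 96 h against 18 h (SE 0.13, adjusted p = 0.0167), a call lost without replicate 1 at 18 h (adjusted p = 0.0681, the highest over 15 alternatives, the lowest being 3.72e-05). Hadha fell by 0.22 in TN alone (adjusted p = 0.0407) and by 0.24 in TMem alone (adjusted p = 0.0270) at 18 h against 0 h. Each of these calls held in 8 of 14 alternative fits. The TN call was lost without replicate 2 or 3 at 0 h or any single array at 18 h, and the TMem call without replicate 1 or 3 at 0 h or at 18 h. Hadha rose at 96 h against 18 h by 0.30 in TMem alone (adjusted p = 0.00874) and by 0.26 in TN alone (adjusted p = 0.0220), the TN call being lost without replicate 2 at 18 h or replicate 2 or 3 at 96 h.

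Echs1 hydrates the shorter enoyl-CoA chains, and Hadh oxidizes the resulting hydroxyacyl-CoA. The group means of Hadh spanned 1.61, wider than in 90.4% of all genes. In TMem alone it read 10.72, 10.69 and 10.30 at 0 h, 9.60, 9.85 and 9.87 at 18 h, and 10.77, 10.83 and 10.81 at 96 h. In TN alone it read 10.67, 10.41 and 10.39 at 0 h, 9.55, 9.60 and 9.59 at 18 h, and 10.27, 10.39 and 10.28 at 96 h. All 18 h arrays lay below the arrays of the other times. Hadh fell at 18 h against 0 h by 0.80 in TMem alone (SE 0.09, adjusted p = 6.87e-08) and by 0.91 in TN alone (SE 0.09, adjusted p = 7.51e-09). Hadh rose at 96 h against 18 h by 1.03 in TMem alone (adjusted p = 1.11e-09) and by 0.74 in TN alone (adjusted p = 5.13e-07). Echs1 read 10.01, 9.32 and 9.43 in TN alone at 0 h, 8.90, 8.87 and 9.002 at 18 h, and 8.92, 9.29 and 9.13 at 96 h. It fell by 0.66 at 18 h against 0 h (SE 0.13, adjusted p = 1.85e-04) and by 0.47 at 96 h against 0 h (adjusted p = 0.00493). Without replicate 1 at 0 h, its highest array, the difference at 96 h was -0.26 and no longer called (adjusted p = 0.0853, between 7.92e-04 and 0.0936 over 14 alternatives). In TMem alone no time comparison of Echs1 was called, with differences of 0.24, -0.11 and 0.14 at 18 h against 0 h, 96 h against 18 h and 96 h against 0 h.

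Etfdh, the oxidoreductase that hands the electrons to ubiquinone, fell at 18 h in both cell types. In TMem alone it read 8.86, 8.55 and 8.91 at 0 h, 8.14, 8.27 and 8.37 at 18 h, and 8.60, 8.57 and 8.58 at 96 h. In TN alone it read 9.47, 9.22 and 9.36 at 0 h, 8.76, 8.84 and 8.68 at 18 h, and 8.51, 8.82 and 8.89 at 96 h. At 18 h against 0 h it fell by 0.51 in TMem alone (SE 0.14, adjusted p = 0.00484) and by 0.59 in TN alone (SE 0.14, adjusted p = 0.00136). The TN level at 96 h against 0 h fell by 0.61 (SE 0.14, adjusted p = 8.96e-04).

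The 18 h response itself differed between the cell types for 4 genes, where 28.9% of all genes were called. Acadm differed by 0.68 (SE 0.13, adjusted p = 1.87e-04), with 0.20 in TMem and -0.48 in TN. Echs1 differed by 0.90 (SE 0.19, adjusted p = 4.49e-04), with 0.24 in TMem and -0.66 in TN. Acadvl differed by 0.60 (SE 0.13, adjusted p = 6.17e-04), with 0.06 in TMem and -0.55 in TN. In these 3 genes the TN level alone was called lower at 18 h. Acadl differed the other way, by -0.42 (SE 0.16, adjusted p = 0.0495), and that call held in 8 of 20 alternative fits. For Cpt1a the difference of -0.66 did not pass (adjusted p = 0.0540), and it passed in 5 of 20 alternative fits, namely with array weights, with the replicate block (adjusted p = 0.0489), with the filter on low values, and without replicate 2 or 3 of TN alone at 0 h. Without replicate 1 of that group the difference was -0.25 (adjusted p = 0.162).

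**Figure D2:**
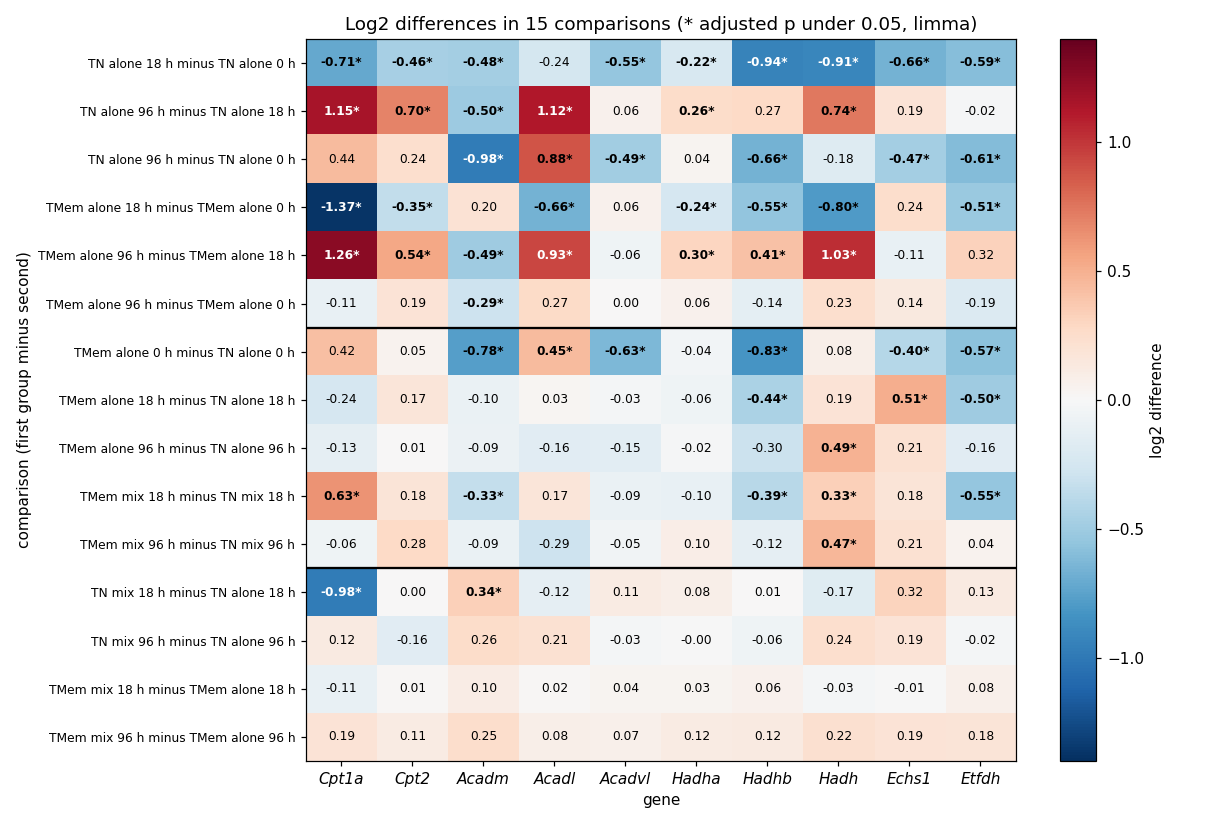
Log2 differences of the 10 genes (columns) in 15 comparisons of 2 groups (rows, first group minus second), coloured from blue (lower in the first group) to red (higher). An asterisk marks an adjusted p under 0.05. The upper block holds the times, in which Cpt1a runs to -1.37 and 1.26, and the lowest block the mixed cultures, in which Cpt1a and Acadm in TN cells at 18 h are the only marked cells.

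Before stimulation, TMem cells had lower levels of 5 of the 10 transcripts than TN cells, and a higher level of 1. This compares TMem alone with TN alone at 0 h, where 17.5% of all genes were called lower and 18.4% higher. Hadhb fell by 0.83 (SE 0.13, adjusted p = 5.71e-06), Acadm by 0.78 (SE 0.09, adjusted p = 7.70e-08) and Acadvl by 0.63 (SE 0.09, adjusted p = 1.93e-06), and the arrays of the groups did not overlap for any of them, as was so for 35.8% of all genes. Etfdh fell by 0.57 (adjusted p = 0.00175). Acadl was the exception and rose by 0.45 (SE 0.11, adjusted p = 0.00231), every TMem array being above every TN array. Echs1 fell by 0.40 (adjusted p = 0.0180), a call that held in 9 of 14 alternative fits. Without replicate 1 of TN alone the difference was -0.19 (adjusted p = 0.246). The call was also lost without replicate 2 or 3 of TMem alone, with array weights, and with only the groups compared in the fit. Cpt1a was 0.42 higher and was not called (adjusted p = 0.0743). It passed without replicate 2 of TN alone (0.64) or replicate 3 (0.60), and without replicate 1 the difference was 0.01. The mast cell marker Cpa3 averaged 9.42 (8.74 to 10.21) in TMem alone at 0 h and 6.17 in TN alone at 0 h, with means of Cpa3 and Mcpt8 of 7.55 to 8.21 against 5.97 to 6.32. In TMem alone at 18 h Cpa3 averaged 5.94, so it also differed between 18 h and 0 h, and its part in these results was not tested.

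After stimulation, between 1 and 5 of the 10 genes were called between the cell types. In TMem alone against TN alone at 18 h, 3 genes were called, where 28.9% of all genes were. Hadhb fell by 0.44 (SE 0.13, adjusted p = 0.00897), Etfdh fell by 0.50 (SE 0.14, adjusted p = 0.00786), and Echs1 rose by 0.51 (SE 0.13, adjusted p = 0.00371). At 96 h Hadh was the single called gene, where 22.2% of all genes were called. It read 10.77, 10.83 and 10.81 in TMem alone against 10.27, 10.39 and 10.28 in TN alone, a rise of 0.49 (SE 0.09, adjusted p = 2.19e-04). In the mixed cultures at 96 h, Hadh was again the single called gene, where 10.6% of all genes were. It read 10.996, 11.06 and 11.01 in TMem mix against 10.49, 10.62 and 10.55 in TN mix, a rise of 0.47 (SE 0.09, adjusted p = 8.34e-04). In the mixed cultures at 18 h, 2 genes were higher and 3 lower, where 11.8% of all genes were called higher and 8.64% lower. Cpt1a rose by 0.63 (SE 0.18, adjusted p = 0.0113) and Hadh by 0.33 (adjusted p = 0.0111), while Etfdh fell by 0.55 (adjusted p = 0.00534), Hadhb by 0.39 (adjusted p = 0.0270) and Acadm by 0.33 (adjusted p = 0.00915). Of these, the call of Etfdh alone held without every single array. Cpt1a was lost without replicate 2 of TN mix or replicate 3 of TMem mix, and Hadh without replicate 2 of TN mix. Acadm was lost without replicate 1 of TN mix or TMem mix. Hadhb was lost without replicate 1 of TN mix or replicate 1 or 2 of TMem mix. The Hadhb call was also lost when the probe sets of a gene were averaged.

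TN cells cultured with TMem cells had less Cpt1a at 18 h than TN cells cultured alone. Cpt1a read 7.96, 7.72 and 7.84 in TN mix, against 8.72, 8.84 and 8.89 in TN alone. Every mix array was below every array of any other group. Cpt1a fell by 0.98 (SE 0.18, 95% interval -1.35 to -0.61, adjusted p = 3.08e-04), a 1.97-fold lower level that was called in all 15 alternative fits. Acadm went the opposite way. It read 10.69, 10.42 and 10.57 in TN mix, against 10.28, 10.22 and 10.17 in TN alone, and rose by 0.34 (SE 0.09, adjusted p = 0.0112). That call was lost without replicate 1 of TN mix or replicate 3 of TN alone. These were the 2 members called, where 14.4% of all genes were. Echs1 read 9.24, 9.20 and 9.28 in TN mix against 8.90, 8.87 and 9.002 in TN alone, a difference of 0.32 that did not pass (adjusted p = 0.118). Eif2s3y differed little here, reading 8.21 to 8.50 in TN mix and 8.09 to 8.25 in TN alone.

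At 96 h no difference in Cpt1a was called. It read 10.10, 10.19 and 9.99 in TN mix against 9.87, 10.05 and 9.98 in TN alone, a difference of 0.12 (95% interval -0.25 to 0.49). None of the 10 genes was called by limma at 96 h in TN cells, where 10.6% of all genes were, and 2 had an unadjusted p under 0.05. These were Acadm, with a difference of 0.26 (adjusted p = 0.0735), and Hadh, with 0.24 (adjusted p = 0.115). Replicate 1 of TN mix was the lowest of its group for 9 of the 10 genes, Cpt1a being the exception. Without it, Acadm differed by 0.41 (adjusted p = 8.73e-04) and Acadl by 0.36 (adjusted p = 0.0320), and both were called, while adjusted p-values over 15 alternatives ran from 4.26e-06 to 0.346 for Acadm and from 0.00257 to 0.645 for Acadl. The replicate number as a block left 0 members called. The effect of mixing itself differed between 96 h and 18 h for 2 genes, where 12.4% of all genes were called. These were Cpt1a, by 1.10 (SE 0.25, adjusted p = 0.00387), and Hadh, by 0.41 (SE 0.13, adjusted p = 0.0419), whose call held in 8 of 21 alternative fits and was lost with the replicate block (adjusted p = 0.0512). At 96 h Eif2s3y read 7.34 to 7.89 in TN mix and 4.13 to 4.20 in TN alone, and its part in these results was not tested.

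In TMem cells, none of the 10 genes passed the test of mixing at either time. At 18 h their differences ran from -0.11 (Cpt1a) to 0.10 (Acadm), 0 had an unadjusted p under 0.05, and 0.0301% of all genes were called. At 96 h all 10 differences were above 0, from 0.07 (Acadvl) to 0.25 (Acadm), 1.12% of all genes were called by limma, and 2 members had an unadjusted p under 0.05. The arrays did not overlap for 5 of the 10, where 21.5% of all genes did not overlap. A difference of the mixing effects between the cell types at 96 h was called for 0 of the 10 by limma, where 3.54% of all genes were called, and 0 had an unadjusted p under 0.05. At 18 h Cpt1a differed by 0.87 (SE 0.25, adjusted p = 0.0424), where 5.17% of all genes were called, in a comparison added after the values were seen.

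**Figure D3:**
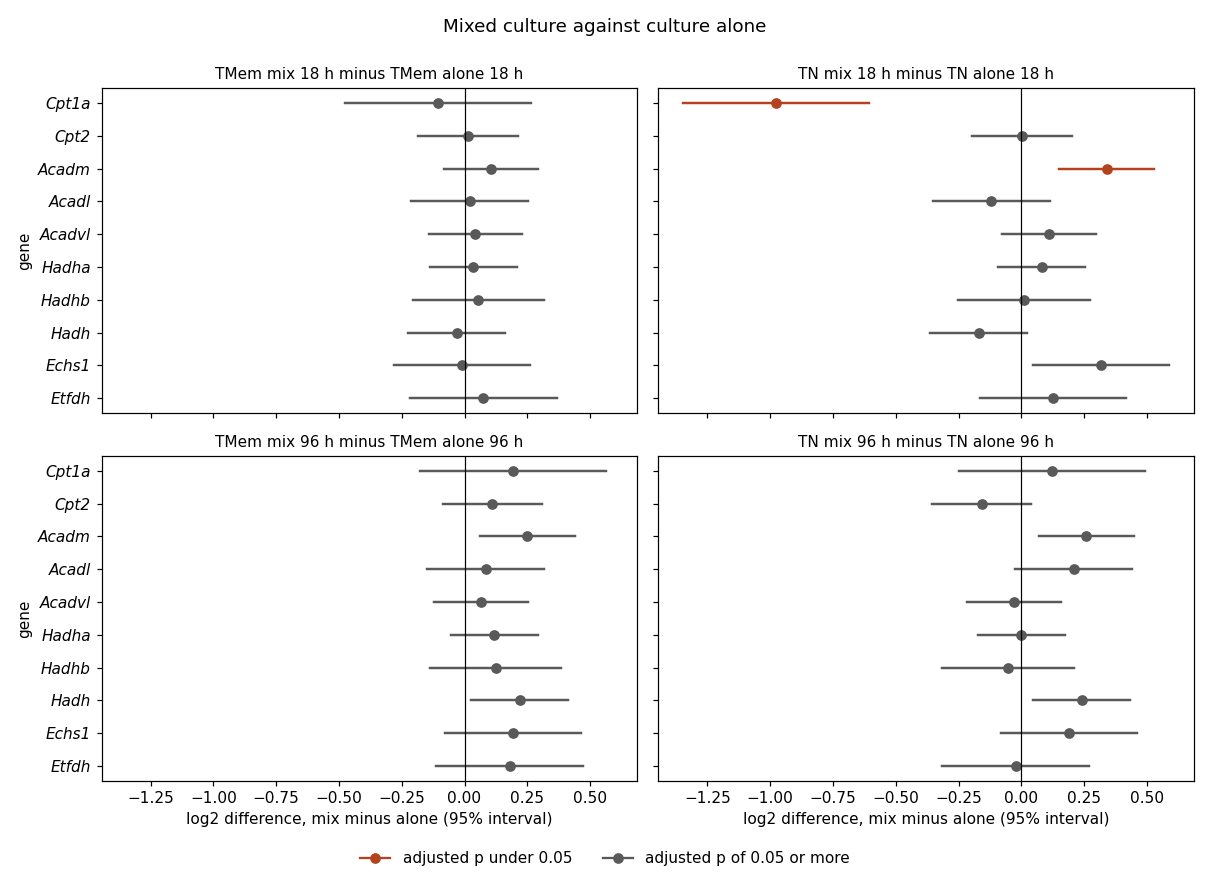
Log2 difference of mix minus alone (horizontal axis) for each of the 10 genes (vertical axis), with 95% intervals from the moderated fit, in TMem cells (left) and TN cells (right) at 18 h (top) and 96 h (bottom). Red marks an adjusted p under 0.05, which Cpt1a (-0.98) and Acadm (0.34) reached in TN cells at 18 h.

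Of the 90 gaps between neighbouring group means when the 10 groups were ranked for each gene, 29 were wider than the larger SD of the pair. For Cpt1a the highest group means were TN mix at 96 h (10.09), TMem mix at 96 h (10.03), TN alone at 96 h (9.97) and TMem alone at 0 h (9.95), whose neighbours differed by less than their spread. The lowest were TN alone at 18 h (8.82), TMem alone at 18 h (8.58), TMem mix at 18 h (8.47) and TN mix at 18 h (7.84). TMem mix and TMem alone at 18 h did not differ beyond their spread, and TN mix lay 0.63 below TMem mix. For Hadh the order was led by TMem mix at 96 h (11.02) and TMem alone at 96 h (10.80) and ended with TN alone at 18 h (9.58) and TN mix at 18 h (9.41), and both of these neighbouring pairs differed beyond their spread. For Acadm the highest were TN alone at 0 h (10.70) and TN mix at 18 h (10.56), and the lowest were TN alone at 96 h (9.72) and TMem alone at 96 h (9.63).

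Across the 30 arrays the 10 genes fell into sets that moved alike, which is a description since arrays of a group share their cells and time. Of the 45 pairs, 36 had a positive Pearson r. Cpt2 went with Hadh (r = 0.90), Cpt1a (0.88), Hadha (0.86) and Acadl (0.86), and Hadhb went with Etfdh (0.90). Within groups, after the group means were taken out, Hadhb and Etfdh still had an r of 0.75, whereas Cpt2 and Hadh had 0.11. Acadm had negative values with Acadl (-0.67), Cpt1a (-0.61), Cpt2 (-0.58) and Hadh (-0.52). Within groups Acadm and Acadl had an r of 0.76, so the negative value came from the differences between groups. Replicate 1 of TN mix at 96 h was low for several genes at once. It differed from the mean of the other replicates by -0.73 for Etfdh, -0.52 for Hadhb, -0.46 for Acadl and -0.45 for Acadm. The part of this array in the within-group values was not tested. Hadha and Hadhb, the subunits of 1 complex, had an r of 0.60.

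**Figure D4:**
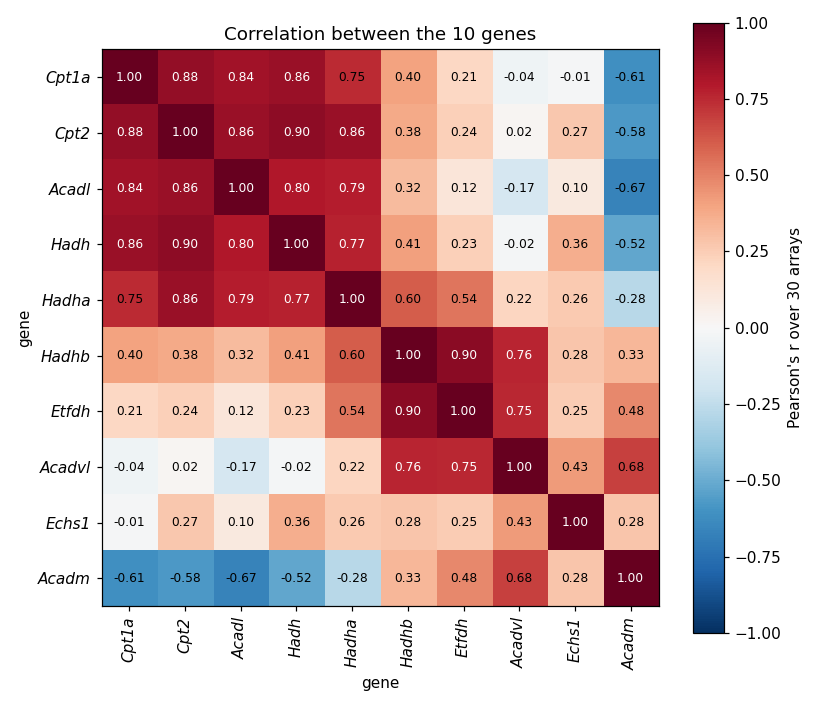
Pearson's r between each pair of the 10 genes (both axes) over the 30 arrays, from -1 (blue) to 1 (red). Cpt1a, Cpt2, Acadl, Hadh and Hadha form a block with values of 0.75 to 0.90, Hadhb, Etfdh and Acadvl a second, and Acadm is negative with 5 genes.

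Among all other genes, the closest pattern to Cpt1a over the 30 arrays was that of Arhgef6 (r = 0.986), followed by Acap1 (0.970) and Sh3bp1 (0.965). For Hadh these were Fuca2 (0.975), Sema4a (0.972) and Rcsd1 (0.967), for Acadl Slc15a1 (0.961), Unc93b1 (0.938) and Cln6 (0.935), and for Hadhb Mitd1 (0.964), Gimap9 (0.957) and Dctn6 (0.953). Mitd1 was also the closest to Etfdh (0.924), and Glb1 was the closest to both Cpt2 (0.941) and Hadha (0.875). The closest to Acadm was Mapk8 (0.933), to Acadvl Slc35a5 (0.914) and to Echs1 Itfg1 (0.925).

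The wider pathway was followed in 5 lists with 58 measured genes of 65 listed, also chosen with earlier results of these data known. Of 15 other mitochondrial enzymes, 11 were lower and 0 higher at 18 h against 0 h in TN alone, with a median of -0.58, where 16.7% of all genes were called lower and 17.1% higher. The thiolase Acaa2 fell by 1.88 (adjusted p = 1.23e-15), and the auxiliary isomerases Eci2 and Ech1, which handle unsaturated chains, fell by 1.45 and 1.17. In TMem alone 8 of the 15 were lower and 3 higher (17.3% and 18% of all genes), with a median of -0.20, and Acaa2 fell by 1.09, Eci2 by 0.79 and Ech1 by 0.73. At 96 h against 18 h, 6 of the 15 were higher and 1 lower in TMem alone (14.6% and 9.87% of all genes), among them Eci2, which rose by 0.89, and 8 were higher and 0 lower in TN alone (11.3% and 13.1% of all genes), where Acaa2 rose by 1.24, Eci2 by 1.03 and Decr1, the dienoyl-CoA reductase, by 0.84. At 0 h, 8 of the 15 were lower in TMem than in TN cells and 1 was higher (17.5% and 18.4% of all genes), and Acadsb, a dehydrogenase of branched short chains, fell by 0.77 (adjusted p = 1.24e-04). In TN mix at 18 h, compared with TN alone, 2 of the 15 were higher and 2 lower, where 6.3% of all genes were called higher and 8.15% lower. Etfa, a subunit of the electron transfer flavoprotein, rose by 0.67 and Acad9 by 0.31, while Acad10 fell by 0.49 and the short-chain dehydrogenase Acads by 0.35.

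Peroxisomes shorten very long chains before mitochondria take them up. Of 10 peroxisomal genes measured, 5 were lower and 2 higher at 18 h against 0 h in TMem alone (17.3% and 18% of all genes), and 5 lower and 1 higher in TN alone (16.7% and 17.1%). Crot, which makes carnitine esters of medium chains for export from peroxisomes, fell by 1.63 in TMem alone (adjusted p = 7.06e-13) and by 1.03 in TN alone (adjusted p = 7.68e-09). The acyl-CoA oxidase Acox3 fell by 1.33 in TMem alone, and the transporter Abcd3 rose by 1.08. In TN mix compared with TN alone at 18 h, 4 of the 10 were lower and 0 higher (8.15% and 6.3% of all genes). Crot fell by 0.71 (adjusted p = 2.04e-05), Acox3 by 0.65 (adjusted p = 2.57e-06), Scp2 by 0.53 and Acaa1a by 0.33, the last 2 being thiolases. At 96 h 2 were higher and 1 lower in TN mix (7% and 3.62% of all genes). Crot rose by 0.67 (adjusted p = 5.03e-05), Ehhadh, the bifunctional enzyme, rose by 0.51, and Scp2 fell by 0.55.

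Of 12 measured genes of uptake and activation, 2 were higher and 0 lower in TN mix at 18 h (6.3% and 8.15% of all genes), namely Fabp5, a fatty acid binding protein, which rose by 0.82 (adjusted p = 6.14e-04), and the acyl-CoA synthetase Acsl5, which rose by 0.46 (adjusted p = 0.00103). At 96 h, 3 were higher and 1 lower (7% and 3.62% of all genes), and Slc27a1, a fatty acid transporter, rose by 0.73 and Acsl4 by 0.56. The other higher gene, Slc27a2, and the lower gene, Cd36, were near background. Fabp5 also rose at 18 h against 0 h, by 0.86 in TMem alone and 1.27 in TN alone. Of the 12, 4 were higher and 1 lower there in TMem alone (18% and 17.3% of all genes). In TN alone 2 were higher and 0 lower (17.1% and 16.7%).

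Among 15 measured regulators and PPAR targets, Acaca, which makes malonyl-CoA, rose at 18 h against 0 h. The rise was 1.08 in TMem alone (adjusted p = 1.92e-07) and 2.05 in TN alone (adjusted p = 1.37e-12). Of the 15, 2 were higher and 3 lower there in TMem alone (18% and 17.3% of all genes). In TN alone 5 were higher and 2 lower (17.1% and 16.7%). Mlycd, which degrades malonyl-CoA, fell by 0.42 in TN mix at 18 h compared with TN alone (adjusted p = 0.0215). In TN mix at 18 h, 3 of the 15 were lower and 0 higher (8.15% and 6.3% of all genes), the others being Ppargc1b, a coactivator of mitochondrial genes, which fell by 0.28, and Ppard, which fell by 0.25. At 96 h, 3 were higher and 1 lower in TN mix (7% and 3.62% of all genes), where Angptl4 rose by 0.72, Plin2 by 0.66 and Acaca by 0.49, and Pparg fell by 0.45. Pparg rose by 1.61 at 96 h against 18 h in TMem alone (adjusted p = 3.25e-15), and Plin2, the lipid droplet coat protein, by 1.57. In that comparison 5 of the 15 were higher and 1 lower (14.6% and 9.87% of all genes). Of 6 genes of fat release, 2 were lower and 0 higher in TN mix at 18 h (8.15% and 6.3% of all genes). Lipa, the lysosomal acid lipase, fell by 0.65 (adjusted p = 2.28e-04), and Lipe, the hormone-sensitive lipase, by 0.29. In TMem cells mixing called 0 genes of any of these 5 lists by limma at either time, where 0.0301% of all genes were called at 18 h and 1.12% at 96 h. Ppargc1a, Pdk4, Cd36, Slc27a2, Acaa1b and Abcd2 were near background in all 10 groups.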

How the data were processed

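The samples were 30 preparations of sorted T cells, and the measured quantity was RNA abundance. Per the labels' protocols, RNA was amplified, labelled with biotin and hybridized. The values deposited by the authors are on a log2 scale, 1 for each probe set and array. The submitters' processing notes name RMA and Partek without versions or roles. RMA usually includes background correction and normalization between arrays, which can narrow differences. Values ranged from 2.05 to 14.2 and entered the tests as deposited. The table has 35556 probe sets, of which 21789 with 1 gene symbol were used. Another 1621 carried several symbols and 12146 were absent from the probe annotation. Where a gene had more than 1 probe set (999 genes), that with the highest mean stood for it, leaving 19938 genes with no filter on low values. Precision is limited by the number of arrays, 3 in each group.

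Group means were estimated for all genes at once with limma 3.58.1 (lmFit, eBayes) under R 4.3.3, leaving 20 residual degrees of freedom. From these came 15 pairwise comparisons and 4 differences between effects, of which 1 was added after the values were seen. Tests were 2-sided, and Benjamini-Hochberg adjustment ran over the 19938 genes in each. The procedure was tested on simulated data. The smallest p that an exact permutation test of 3 arrays against 3 allows is 0.1. Alternatives were quantile normalization, centring on array medians, array weights, eBayes with trend and robust, a replicate block, a filter on low values, averaging the probe sets of a gene, fewer groups in the fit and leaving out single arrays.

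The reported fits did not pair arrays by replicate number. In TN mix and TN alone at 96 h the deviations of same-numbered arrays from their group means correlated in each pair (r = 0.489, 0.312 and 0.137). A fit with the replicate number as a block is therefore given beside the reported one for that comparison. Its pairing comes from the data, not from the labels. The 10 genes and the wider lists were chosen with earlier results of these data known. All 10 members are described. From a wider list, at most the 3 called genes with the largest differences in a comparison were eligible to be named, besides genes that complete a count of 5 or fewer, and some eligible ones are left unnamed. Genes of similar pattern were the most correlated of all others, leaving out predicted genes and small RNAs by their symbols (Gm, Rik, LOC, Mir, Snor). Of the 65 genes in the wider lists, 58 were measured, and the others are not reported here. Upstream sequences are from RefSeq, build GRCm38.p6, where all 10 members were found by symbol.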

Additional observations from a re-analysis of the deposited data

Results flagged for a closer look

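The effect of mixing in TN cells differed between 96 h and 18 h for 2 of the 10 genes, where 12.4% of all genes were called. For Cpt1a the difference of effects was 1.10 (SE 0.25, adjusted p = 0.00387, limma), with 0.12 at 96 h and -0.98 at 18 h. For Hadh it was 0.41 (SE 0.13, adjusted p = 0.0419, limma), with 0.24 at 96 h and -0.17 at 18 h. That call held in 8 of 21 alternative fits and was lost with the replicate block (adjusted p = 0.0512). The Y-linked gene Eif2s3y read 7.34 to 7.89 in TN mix and 4.13 to 4.20 in TN alone at 96 h. At 18 h it read 8.21 to 8.50 and 8.09 to 8.25. Its part in these differences, and that of the other marker genes that differed at 96 h, was not tested.

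The response to 18 h of stimulation differed between TMem and TN cells cultured alone for 4 genes, where 28.9% of all genes were called. The difference was 0.90 for Echs1 (SE 0.19, adjusted p = 4.49e-04, limma), with 0.24 in TMem and -0.66 in TN. It was 0.68 for Acadm (SE 0.13, adjusted p = 1.87e-04, limma), with 0.20 in TMem and -0.48 in TN. It was 0.60 for Acadvl (SE 0.13, adjusted p = 6.17e-04, limma), with 0.06 in TMem and -0.55 in TN. It was -0.42 for Acadl (SE 0.16, adjusted p = 0.0495, limma), with -0.66 in TMem and -0.24 in TN. The Acadl call held in 8 of 20 alternative fits. The Y-linked gene Eif2s3y read 8.82 to 9.47 in TMem alone at 0 h and 18 h, but in TN alone 8.09 to 8.25 at 18 h against 3.997 to 4.58 at 0 h, and its part in these differences was not tested.

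The effect of mixing at 18 h differed between TMem and TN cells for Cpt1a by 0.87 (SE 0.25, adjusted p = 0.0424, limma), with -0.11 in TMem and -0.98 in TN. This comparison was added after the values were seen. Its call held in 10 of 21 alternative fits and was lost without 10 of the 12 single arrays, and adjusted p-values over 21 alternatives ran from 1.81e-05 to 0.109.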

How the results depend on the processing

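Over 190 differences of a member in a comparison, 61 were called as reported, 94 in no fit, and 35 under an alternative only. Among 3030 values under alternatives, 75 lost a call, 66 gained one, and 0 turned sign with a call in both fits. The 3 that turned sign among differences called in some fit were Hadh in TMem alone against TN alone at 0 h (0.08 as reported, -0.046 after centring) and, without replicate 2 of TN mix at 96 h, Acadm (-0.09 as reported) and Hadhb (-0.12 as reported) in TMem mix against TN mix at 96 h. Leaving out single arrays gave values from -0.242 to 5e-04 for that Acadm difference and from -0.297 to 0.00317 for that Hadhb difference. Another 118 values turned sign in differences called in no fit, none larger than 0.22.

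The number of the 10 genes called moved by over 1.5 times as follows. Array weights gave 4 in place of 0 in TN mix against TN alone at 96 h, 2 in place of 0 in TMem mix against TMem alone at 96 h, 6 in place of 1 in TMem alone against TN alone at 96 h, 5 in place of 1 in the mixed cultures at 96 h, and 3 in place of 1 in TMem alone at 96 h against 0 h. Leaving the 0 h arrays out of the fit gave 1, 5, 2 and 2 in TN mix against TN alone at 96 h, TMem alone against TN alone at 18 h and at 96 h, and the mixed cultures at 96 h. Quantile normalization gave 2 for the cell types at 96 h alone and 2 mixed, and 1 for the mixing effect in TN cells at 96 h against 18 h. Centring gave 1 for that difference, 0 for TMem alone at 96 h against 0 h and 0 for the mixing effects at 18 h between cell types. With only the groups compared, TMem alone against TN alone at 96 h gave 2. The replicate block gave 1 for the mixing effect in TN cells at 96 h against 18 h, 0 in TN mix against TN alone at 96 h, also with only those groups in the fit, and changed no other count by over 1.5 times.

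Leaving out single arrays gave 1 to 2 called genes in TN mix against TN alone at 18 h and 0 to 2 at 96 h, 3 to 5 in the mixed cultures at 18 h and 1 to 2 at 96 h, 0 to 2 in TMem alone at 96 h against 0 h, 1 to 3 for the mixing effect in TN cells at 96 h against 18 h, and 0 to 1 for the mixing effects at 18 h between cell types. Without replicate 1 of TN alone at 0 h, Cpt1a fell by 1.12 in place of 0.71 at 18 h. The cause of these changes was not tested.

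Scaling moved the median of all genes by over 0.1 in 4 comparisons, to -0.13 (quantile) and -0.15 (centred) from -0.02 for TN alone at 18 h against 0 h, to -0.12 (centred) from -0.01 at 96 h against 0 h, to -0.10 (centred) from 0.02 for TMem alone against TN alone at 0 h, and to 0.08 and 0.12 from -0.06 for the 18 h responses. The share of higher genes among all called was 50.7% as reported, 33.8% (quantile) and 29.99% (centred) for TN alone at 18 h against 0 h, 51.0% and 35.4% (centred) at 96 h against 0 h, 51.2% and 34.4% (centred) for TMem alone against TN alone at 0 h, 43.6% and 54.3% (centred) for TN mix at 18 h compared with TN alone, 49.2%, 60.3% and 70.7% for the 18 h responses, and 72.2% and 62.0% (centred) for the mixing effects at 18 h.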
